A study of Homo sapiens with 12 samples.

Results

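R1, a clone isolated from HEK293T cells, was compared with its parent line in medium in which homocysteine took the place of methionine. HEK293T is a human embryonic kidney line that carries SV40 large T antigen. The comparison comprised the 6 libraries of the homocysteine medium, 3 of R1 and 3 of HEK293T, out of 12 libraries in the series, and a library belongs to it by its labelled line and medium. In the other 6 libraries the same 2 lines were kept in medium with methionine. All 12 were RNA-seq libraries of cells exposed to their medium for 12 h. The media are written as -Met+Hcy (no methionine, homocysteine added) and +Met.

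Both lines share the HEK293T background, and R1 is 1 clone that had been picked for growth without methionine. What belongs to growth on homocysteine therefore cannot be told apart from what else belongs to that clone. The labels number the replicates but do not say whether they came from separate cultures, so the p-values measure the spread between these libraries, which may be technical. The libraries are of bulk cells, in which fewer cells of a kind and less RNA per cell cannot be told apart.

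The 6 libraries held 13718050 to 18771349 estimated counts each. R1 -Met+Hcy replicate 3 lay apart from the others: 13936 genes were detected in it against 16349 to 17065 in the other 11 libraries, and its 10 most abundant genes took 8.91% of its counts. The SD of its log2 differences from the other replicates of its group was 1.39, against 0.182 to 0.782 in the other 11. Across genes, the rank correlation of these differences with GC content was -0.744 for that library. It was 0.600 and 0.730 for R1 -Met+Hcy replicates 1 and 2, and -0.338 to 0.537 in the libraries of the other groups. Each library is compared with the others of its group, so values within a group depend on each other. Comparisons are therefore given with all 6 libraries, and many of them again without R1 replicate 3. All 12 marker genes listed for HEK293T cells were detected in every library but R1 -Met+Hcy replicate 3, where 1 was at 0. In -Met+Hcy their summed level was 777 to 923 CPM (counts per 1000000, with library sizes scaled by the trimmed mean of M values) in HEK293T and 1100 to 1580 CPM in R1. VIM and SLIT2 made up most of each sum, and 8 of the 12 log2 fold changes were above 0 and 4 below. In +Met the sums overlapped, at 1130 to 1290 CPM in HEK293T and 1050 to 1520 CPM in R1. Of the 12 genes listed for triple-negative breast cells, a type grown in the same laboratory, 9 had too few counts in the series to be tested. In -Met+Hcy the other 3 summed to 3.65 to 6.97 CPM in HEK293T and 13.7 to 15.9 CPM in R1. Most of that sum was EGFR, with a mean of 3.64 CPM in HEK293T and 12.7 CPM in R1. In the same medium the 6 tested leukocyte markers and the 4 tested endothelial markers reached at most 6.03 and 2.54 CPM in sum. The 5 tested fibroblast markers summed to 35.0 to 81.3 CPM there. The part of these levels in the results below was not tested.

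Homocysteine is turned into methionine by methionine synthase, and methionine is activated to S-adenosylmethionine (SAM), the methyl donor of most cellular methylation reactions, by the product of MAT2A. Methyl transfer leaves S-adenosylhomocysteine, which is hydrolysed back to homocysteine, and homocysteine can instead leave the cycle towards cysteine through cystathionine γ-lyase, encoded by CTH. Proteins are substrates of such reactions too. The phosphatase PP2A is one of them, since LCMT1 puts a methyl group on the carboxyl end of its catalytic subunit and the methylesterase PPME1 takes it off. When amino acids run short, uncharged tRNA activates the kinase GCN2, translation of the transcription factor ATF4 rises, and ATF4 with C/EBP partners induces genes of amino acid synthesis, uptake and tRNA charging, together with stress factors such as CHAC1, ATF3 and FGF21.

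ATF4 and C/EBP proteins bind a composite element whose core reads TGATGNAA, and the promoters of 3 amino acid response genes that were lower in R1 are shown because each holds this core. The stretches are 100 bases long, were taken from RefSeq promoters on GRCh38.p14 and are printed 5′ to 3′ on the plus strand, which is also the strand of the 3 genes, with the core in capitals in either orientation. They lie at chr19:48755424-48755523 for FGF21, chr1:212565170-212565269 for ATF3 and chr15:40953221-40953320 for CHAC1.
FGF21: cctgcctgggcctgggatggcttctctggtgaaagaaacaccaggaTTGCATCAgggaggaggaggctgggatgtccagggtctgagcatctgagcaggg
ATF3: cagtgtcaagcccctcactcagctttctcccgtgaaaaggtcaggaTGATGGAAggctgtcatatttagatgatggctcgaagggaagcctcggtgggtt
CHAC1: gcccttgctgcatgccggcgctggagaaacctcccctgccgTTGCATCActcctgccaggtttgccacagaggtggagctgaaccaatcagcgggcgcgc
The core began 54, 191 and 209 bases before the annotated start in FGF21, ATF3 and CHAC1. A promoter here is the window from 250 bases before to 50 bases after the start, searched on both strands. Of the 26 amino acid response genes called lower in R1, 20 had a promoter in the table and 5 of these held the core, or 25.0%. It was present in 1 of the 12 promoters of list members that were not called. The share was 2.93% in the 615 promoters of all genes called lower and 0.73% in the 685 of genes called higher. In the 12367 promoters of all genes tested it was 1.97%, and in all 27305 promoters, tested or not, 3.67%. A match describes the letters of the window only.

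In -Met+Hcy, R1 differed from HEK293T in many genes in both directions. A gene was called when its absolute log2 fold change was over 1 and its p, adjusted by the Benjamini-Hochberg method across the 17162 gene entries tested with edgeR's quasi-likelihood test, was under 0.05. R1 had 908 entries higher (5.29% of those tested) and 800 lower (4.66%), together 9.95%. With R1 replicate 3 left out, 1473 were higher (8.63%) and 1100 lower (6.44%), together 15.1% of 17069. That fit called 752 of the 908 higher entries (82.8%) and 655 of the 800 lower entries (81.9%) again. With 1 entry per gene symbol the counts were 875 higher (5.65%) and 736 lower (4.75%) of 15480 genes, together 10.4%. In the fit without R1 replicate 3 these shares were 9.08%, 6.38% and 15.5%, and in +Met 5.08% were higher and 3.02% lower, together 8.11%. The lists of genes described next are read against these shares.

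Many of these differences were measured a second time in the separate +Met libraries, in which 808 entries were higher in R1 (4.71%) and 507 lower (2.95%), together 7.66% of all entries. Of the entries higher in -Met+Hcy, 480 were also called higher in +Met, which is 52.9% of the former and 59.4% of the latter list. Of the entries lower in -Met+Hcy, 239 were also called lower in +Met, or 29.9% and 47.1% of the lists. The median log2 fold change of the 908 higher entries was 1.66 in -Met+Hcy and 1.31 in +Met, and that of the 800 lower entries was -1.47 and -0.84. The sign in +Met was the same for 95.9% of the higher entries and 92.1% of the lower entries, where 51.2% of all entries were above 0 and 48.0% below 0. Only CCT6B and H2BC5 were called in opposite directions in the 2 media, both lower in -Met+Hcy and higher in +Met.

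The difference between the lines was itself called different between the media (interaction) for 10 entries, 0.0583% of those tested, which carry 8 symbols. All 10 were in the direction of a lower R1 value in -Met+Hcy than the +Met difference would give. With R1 replicate 3 out of the fit this count was 236 (1.38%), 52 in the positive (0.305%) and 184 in the negative direction (1.08%). DESeq2 called 190 with all libraries, so the size of this set depends on the test and on that library.

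The 12 largest increases in R1 were in genes near the detection limit of HEK293T, with 1 exception. TMEM88, a membrane protein that inhibits Wnt signalling, had 0.129, 0.170 and 0 CPM in HEK293T and 21.9, 15.4 and 11.7 CPM in R1. The ratio of its summed counts was 155, with an exact 95% counting interval of 66.3 to 479, and its log2 fold change in +Met was 7.51. The cancer-testis antigens MAGEC2 and MAGEA12, whose expression is normally restricted to the germ line, belonged to the same set. MAGEC2 had 0.581, 0.904 and 1.26 CPM in HEK293T against 84.1, 47.3 and 38.7 CPM in R1, a log2 fold change of 5.94 ± 0.43 (SE, adjusted p = 1.64e-05, edgeR's quasi-likelihood test, here and for the values that follow). For MAGEA12 the ratio of summed counts was 68.4, with an exact 95% counting interval of 29.0 to 212. The HEK293T values of both genes lay far below all R1 values.

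GPC3 was the exception, a gene that HEK293T also expressed. It encodes glypican-3, a heparan sulfate proteoglycan of the cell surface that is found in embryonic tissues. Its level was 48.8, 51.4 and 47.5 CPM in HEK293T and 1449, 1362 and 1461 CPM in R1, a log2 fold change of 4.85 ± 0.21 (edgeR, adjusted p = 3.03e-07). All 3 R1 libraries, replicate 3 included, were close to each other and far above the HEK293T libraries. In +Met the log2 fold change was 5.36. IRS4, an insulin receptor substrate that is abundant in HEK293 cells, was the other strongly expressed gene of this kind, with 601, 513 and 451 CPM in HEK293T and 2140, 2392 and 1779 CPM in R1 (log2 fold change 2.01 ± 0.22, adjusted p = 0.000269).

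The remaining large increases ranged from 3.89 to 5.65 on the log2 scale. They were APOE, the apolipoprotein of lipid transport, IGFBP7, a secreted binder of insulin-like growth factors, OLFML1, RASL10B, FGD5, TOX3, SRGN, the core protein of secretory granule proteoglycans, and SP110, a nuclear body protein. APOE had 0.194, 0.508 and 0.133 CPM in HEK293T and 15.7, 19.8 and 8.76 CPM in R1, and OLFML1 had 0.452, 0.960 and 0.729 CPM against 24.8, 24.2 and 39.8 CPM. In TOX3, SRGN and SP110, R1 replicate 3 was the highest library, and without it their log2 fold changes were 3.70, 3.30 and 3.06 in place of 4.78, 3.94 and 3.89. All 8 were also called higher in +Met.

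**Figure D1:**
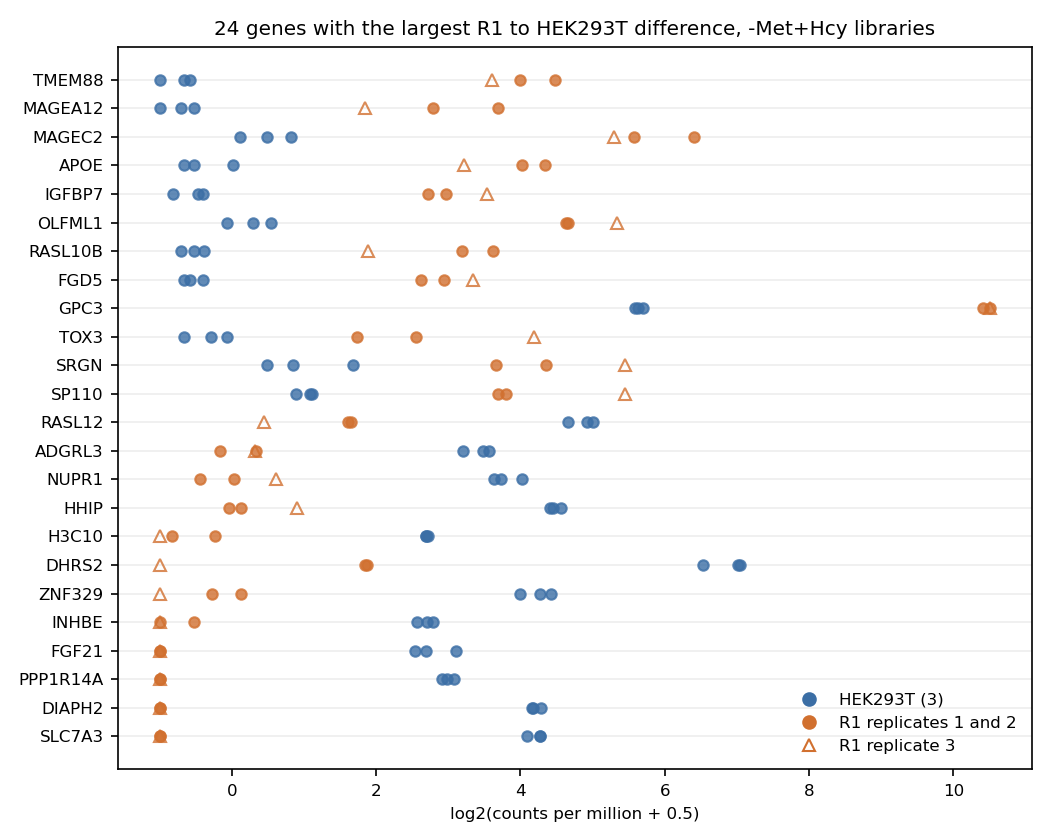
Level of the 24 genes with the largest called difference (rows, 12 higher and 12 lower in R1) in the 6 -Met+Hcy libraries, as log2 of CPM plus 0.5, with 1 point per library. In every row the 3 HEK293T points (blue) lie apart from the 3 R1 points (orange, with replicate 3 as open triangles), and a point at -1 is a library with no counts.

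Among the largest decreases were genes with no counts in any of the 3 R1 libraries. SLC7A3, a transporter of cationic amino acids, had 18.7, 16.6 and 18.8 CPM in HEK293T. DIAPH2, a formin that nucleates actin filaments, had 18.9, 17.6 and 17.3 CPM. PPP1R14A, an inhibitor of myosin phosphatase, had 7.04, 7.40 and 7.95 CPM. With a floor of 3 counts per library, these genes were at least 99.2-fold, 98.7-fold and 41.1-fold lower in R1. All 3 were at or near 0 in R1 in +Met as well, where the log2 fold changes were called lower too.

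FGF21, a secreted metabolic hormone, was different in this respect. It had 5.30, 5.99 and 8.09 CPM in HEK293T in -Met+Hcy, no counts in R1, and no counts in any +Met library, so it was at least 35.5-fold lower in R1 in -Met+Hcy and listed at 0 in both lines in +Met. INHBE, which encodes the βE chain of the inhibin family, had 6.01, 6.38 and 5.43 CPM in HEK293T against 0.197, 0 and 0 CPM in R1, a ratio of 98.8 with an exact 95% counting interval of 33.5 to 482. Its HEK293T levels in +Met were 0.227, 0.0777 and 0.0735 CPM.

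DHRS2, a mitochondrial dehydrogenase/reductase, was the most abundant gene among the 12 largest decreases. It had 129, 131 and 91.7 CPM in HEK293T and 3.08, 3.18 and 0 CPM in R1, a log2 fold change of -5.82 ± 0.78 (adjusted p = 0.00075). In +Met its log2 fold change was -1.51 and was not called. Without R1 replicate 3, in which it had no counts, the value in -Met+Hcy was -5.23 and the interaction was -3.72 (adjusted p = 0.000228). HHIP, which binds hedgehog ligands, fell from 23.1, 21.4 and 20.8 CPM to 0.590, 0.471 and 1.38 CPM and was lower in both media (log2 fold change -4.72 and -3.95). RASL12, a small GTPase, had 24.9, 31.7 and 29.7 CPM against 2.56, 2.65 and 0.859 CPM, with a log2 fold change of -3.83 here and of -0.40 in +Met. The rest of the 12 were ZNF329, the histone gene H3C10, NUPR1 and ADGRL3, with log2 fold changes of -5.89 to -3.99.

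The amino acid response was the list with the largest share of called genes. Of its 41 members, 26 were lower in R1 and 0 higher, where 4.75% of all genes were lower and 5.65% higher. The median log2 fold change was -1.38, beside 0.00 for all genes, and 38 of the 41 values were below 0. The fit without R1 replicate 3 called 26 lower and 0 higher, with a median of -1.49, and DESeq2 called 28 lower with all libraries. In +Met, 8 members were lower and 2 higher, with a median of -0.50. Of the 37 members that averaged 4 CPM or more, 32 had all R1 libraries below all HEK293T libraries, against 19.7% of the 11188 genes at that level (15.9% had all R1 libraries above, together 35.7%). The list was drawn up with earlier results of these data known, so its counts describe it and are not independent evidence.

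CHAC1 and ATF3 show the pattern by library. CHAC1, which encodes an enzyme that degrades glutathione, had 157, 168 and 199 CPM in HEK293T and 22.1, 24.2 and 4.47 CPM in R1, a log2 fold change of -3.37 ± 0.47 (adjusted p = 0.00094). In +Met it had 8.39, 6.21 and 5.80 CPM in HEK293T and 3.92, 3.88 and 3.94 CPM in R1. The R1 levels in -Met+Hcy thus lay between those of either line in +Met and those of HEK293T in -Met+Hcy, except in replicate 3, which was below the HEK293T +Met values. Without that replicate the log2 fold change was -2.92 and the interaction -2.12 (adjusted p = 0.00208).

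The next genes of the response, ATF3 to ATF4, were picked for the text after their values were seen, apart from SLC7A11, PSAT1, NUPR1, ADM2 and CTH, which the rule for named genes gave. ATF3, a stress-induced transcription factor, had 87.8, 116 and 127 CPM in HEK293T and 13.2, 9.25 and 7.39 CPM in R1 (log2 fold change -3.47 ± 0.30, adjusted p = 5.12e-05), and it was lower in +Met also (-1.38). DDIT4, an inhibitor of mTORC1, had 596, 666 and 677 CPM against 116, 92.7 and 5.67 CPM. Its log2 fold change was -3.18 ± 0.71 (adjusted p = 0.0115) with all libraries and -2.63 without R1 replicate 3, and 0.71 in +Met (not called). The 3 HEK293T libraries lay above all R1 libraries in both genes.

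Called enzymes and transporters of the response included ASNS, PSAT1 and SLC7A11. ASNS, asparagine synthetase, had 645, 804 and 995 CPM in HEK293T and 228, 166 and 305 CPM in R1 (-1.81 ± 0.26 on the log2 scale, adjusted p = 0.00104). PSAT1, a transaminase of serine synthesis, had 680, 850 and 982 CPM against 309, 216 and 179 CPM (-1.84). SLC7A11, the cystine importer, had 148, 153 and 149 CPM against 23.7, 22.5 and 17.5 CPM (-2.82). No R1 library reached the lowest HEK293T library in these 3 genes. SLC3A2, the heavy chain that SLC7A11 and SLC7A5 require, was at -2.09, SLC7A5, which imports large neutral amino acids including methionine, at -1.75, and NUPR1, a chromatin-associated stress protein, at -4.47. ADM2, a secreted peptide, had 3.68, 2.77 and 1.92 CPM in HEK293T and no counts in R1, at least 15.4-fold lower.

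ATF4 itself was not called. It had 1234, 1479 and 1532 CPM in HEK293T and 1037, 972 and 1160 CPM in R1, a log2 fold change of -0.42 ± 0.17 (adjusted p = 0.124). Its value without R1 replicate 3 was -0.49 (adjusted p = 0.0348), which is under the fold threshold. DDIT3 (CHOP) was at -0.75 (adjusted p = 0.0706) and TRIB3, an inhibitor of ATF4, at -1.07 (adjusted p = 0.288), and TRIB3 had 1.15 CPM in R1 replicate 3 against 19 and 21.9 CPM in the other R1 libraries. The 3 members above 0, ALDH1L2, SLC1A4 and JDP2, had values of 0.57, 0.41 and 0.27 and none was called.

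**Figure D2:**
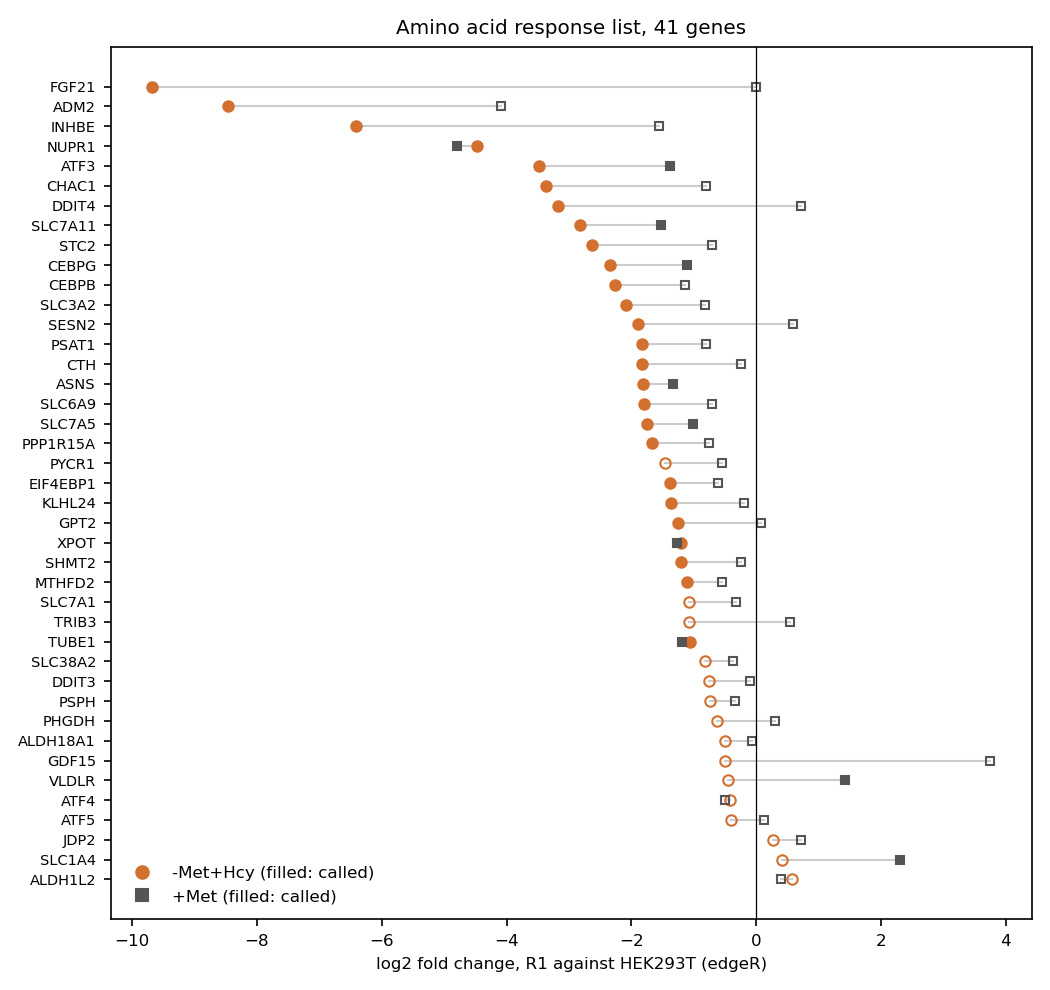
Log2 fold change of R1 against HEK293T for the 41 amino acid response genes in -Met+Hcy (orange circles) and in +Met (grey squares), filled where the gene was called. In -Met+Hcy 38 of 41 points lie left of 0 and 26 are filled, while in +Met 8 are filled left of 0 and 2 right of it; fitted values of genes with no counts in a group, such as FGF21 and ADM2, depend on the prior count.

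Of the 10 entries called for the interaction, the 7 genes named here include 2 of this response, SESN2 and CTH. SESN2, a leucine sensor upstream of mTORC1, had 99, 87.7 and 80.2 CPM in HEK293T and 23.8, 33.4 and 14.6 CPM in R1 (log2 fold change -1.90 ± 0.26), while in +Met HEK293T had 11.4, 14.9 and 13.8 CPM and R1 22.0, 19.2 and 19.6 CPM (0.60, not called). CTH had 72.7, 86.4 and 90.6 CPM in HEK293T and 24.5, 23.6 and 21.8 CPM in R1 in -Met+Hcy (-1.84 ± 0.17, adjusted p = 8.03e-05). In +Met its levels were 21.0, 24 and 20.6 CPM in HEK293T and 17.6, 18.5 and 19.5 CPM in R1 (-0.24, not called). The HEK293T -Met+Hcy libraries stood apart from the other 9 libraries in both genes.

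The other 5 were chosen for the text by that test. The linker histone gene H1-2 had 89.0, 108 and 133 CPM in HEK293T and 17.0, 11.3 and 16.9 CPM in R1, and 3.94 to 7.05 CPM in all 6 +Met libraries. SLC2A14, a glucose transporter gene, had 280, 316 and 330 CPM against 40.2, 24.3 and 33.2 CPM in -Met+Hcy, and 26.5 to 50.4 CPM in +Met. Its paralog SLC2A3 is nearly identical in sequence and had 11.4, 10.7 and 8.62 CPM against 17.0, 21.2 and 6.41 CPM, so that the split of reads between the 2 genes is uncertain. GADD45A, a growth arrest gene, and MOAP1, which encodes a BAX-binding protein, had -Met+Hcy log2 fold changes of -1.27 and -1.12 and +Met values of 0.49 and 0.70, both under the fold threshold and not called.

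MYOM2, which encodes a sarcomere protein, followed another pattern, in that the lines were called different in +Met and not in -Met+Hcy. It had 9.37, 6.21 and 9.08 CPM in HEK293T and 4.59, 4.89 and 5.56 CPM in R1 in -Met+Hcy (-0.71, adjusted p = 0.165). In +Met it had 0.680, 0.466 and 0.882 CPM in HEK293T and 3.97, 8.08 and 5.66 CPM in R1 (3.11). R1 was below HEK293T without overlap in the first medium and above it without overlap in the second.

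**Figure D3:**
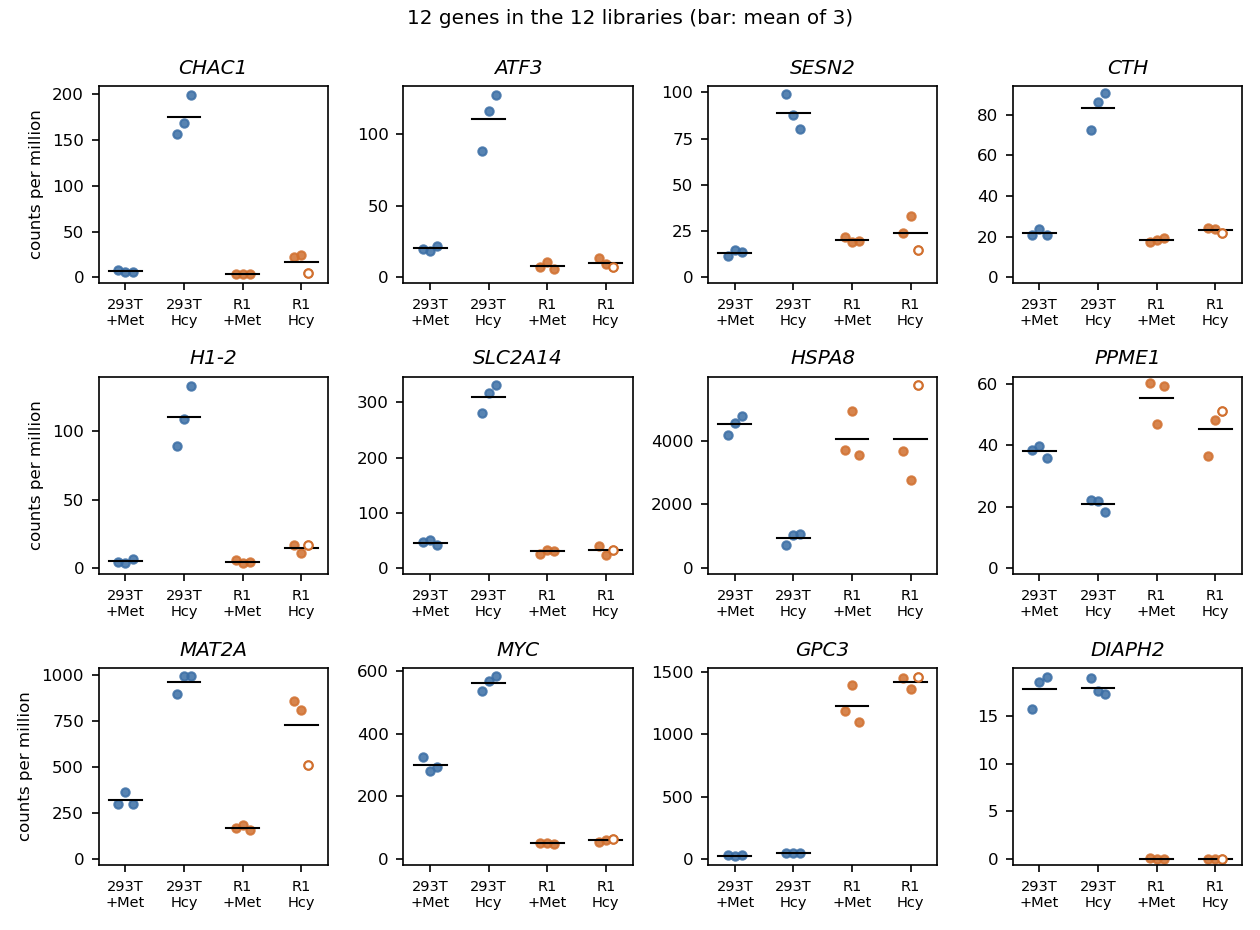
CPM of 12 genes in the 12 libraries, grouped by line and medium, with 1 point per library, the mean of each group as a bar and R1 -Met+Hcy replicate 3 as an open point. In CHAC1, ATF3, SESN2, CTH, H1-2 and SLC2A14 the HEK293T -Met+Hcy libraries stand above the other 9, in HSPA8 and PPME1 they stand below them, and in MYC, GPC3 and DIAPH2 the libraries divide by line in both media.

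Of 29 tested members of the list of the methionine cycle, salvage and transsulfuration, 2 were higher and 3 lower in R1, together 17.2% beside 10.4% of all genes. The median log2 fold change was -0.42, with 21 of the 29 values below 0, and in +Met 1 was higher and 3 lower, with a median of -0.52. CTH, a member lower in -Met+Hcy, also stands in the amino acid response list. MAT2A had 892, 993 and 992 CPM in HEK293T and 858, 808 and 510 CPM in R1. All R1 libraries lay below all HEK293T libraries, but the log2 fold change of -0.40 ± 0.21 (adjusted p = 0.215) was not called. In +Met MAT2A had 300.4, 366 and 297 CPM in HEK293T and 168, 185 and 157 CPM in R1, a log2 fold change of -0.92 (adjusted p = 0.0167) that was under the fold threshold.

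MTR, methionine synthase, had 115, 84.8 and 68.6 CPM in HEK293T and 101, 146 and 106 CPM in R1, with overlapping ranges (0.40, adjusted p = 0.391). MTRR, the reductase that reactivates methionine synthase and a gene chosen after its values were seen, was just past the threshold, with 73.4, 82.1 and 82.4 CPM against 39.4, 35.3 and 43.6 CPM (-1.01 ± 0.16, adjusted p = 0.00193). TCN2, the transporter of cobalamin in blood, was low and rose from 0.710, 1.30 and 0.928 CPM to 4.46, 6.84 and 6.13 CPM (2.55). It was higher in R1 in +Met too (3.43). MRI1, an isomerase of methionine salvage, and SMS, spermine synthase, were called at -1.14 and 1.04, but without R1 replicate 3 their values were -0.76 and 0.65 and neither was called.

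In the PP2A list 1 of 29 genes was higher and 1 lower, with a median of 0.28 that was 0.02 without R1 replicate 3. PPME1, the PP2A methylesterase, was the higher one, with 22.1, 21.9 and 18.3 CPM in HEK293T and 36.6, 48.3 and 51.1 CPM in R1 (1.13 ± 0.19, adjusted p = 0.00249, and 1.03 without R1 replicate 3). In +Met its values were 38.6, 39.7 and 35.9 CPM in HEK293T and 60.1, 46.8 and 59.3 CPM in R1 (0.54, adjusted p = 0.0884). The R1 and HEK293T libraries did not overlap in either medium. IGBP1, the α4 protein that binds the free catalytic subunit, was the lower one, with 51.7, 61.0 and 68.9 CPM against 27.1, 24.3 and 27.3 CPM (-1.21), and it was also lower in +Met (-1.41).

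Neither catalytic subunit gene of PP2A was called. PPP2CA had 251, 270 and 265 CPM in HEK293T and 168, 165 and 170 CPM in R1, without overlap, and its log2 fold change of -0.65 ± 0.14 (adjusted p = 0.0107) was under the fold threshold. PPP2CB was at 0.13 (adjusted p = 0.633). LCMT1 had 28.1, 39.5 and 41.7 CPM against 34.5, 25.4 and 49.6 CPM, with overlapping ranges and a log2 fold change of 0.00 ± 0.25 (adjusted p = 0.998).

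Further genes that the study names were at low counts. EIF3CL had no counts in either line in -Met+Hcy. IGFBP3 had 0, 0.452 and 0 CPM in HEK293T and 0.0655, 0.177 and 0 CPM in R1. OSMR, the oncostatin M receptor, had 0.194, 0.0565 and 0.331 CPM against 0.983, 1.41 and 2.46 CPM, a called difference (3.03 ± 0.76, adjusted p = 0.0199).

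Among genes of folate and serine metabolism 5 of 22 were lower in R1 and 0 higher, with a median of -0.45 that was -0.15 without R1 replicate 3. The largest decrease was that of PSAT1 (-1.84), which also stands in the amino acid response list, so the lists are not separate evidence. MTHFD1L, the mitochondrial formate-producing enzyme, had 244, 243 and 221 CPM in HEK293T and 66.7, 80.3 and 69.0 CPM in R1 (-1.71 ± 0.17, adjusted p = 0.000164), and it was lower in +Met as well (-1.37). MTHFD2L was at -1.41 and SHMT2, the mitochondrial serine hydroxymethyltransferase, at -1.20. SHMT2 had 98.5 CPM in R1 replicate 3 against 216 and 241 CPM in the other R1 libraries and was at -0.90, not called, without it.

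Amino acid transporters were lower in 8 and higher in 1 of 30 genes, with a median of -0.46, or -0.23 without R1 replicate 3. SLC1A5, the glutamine transporter, had 517, 516 and 505 CPM in HEK293T and 148, 158 and 34.3 CPM in R1 (-2.18 ± 0.41, adjusted p = 0.00489, and -1.75 without replicate 3). SLC1A1, a transporter of glutamate and cysteine, was the 1 higher member, with 1.81, 1.75 and 1.79 CPM against 11.5, 12.6 and 7.45 CPM (2.55). In both genes the lines did not overlap. Of the 8 lower members, SLC7A11, SLC7A5, SLC3A2 and SLC6A9 also stand in the amino acid response list, so the lists are not separate evidence.

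Of 22 cytosolic aminoacyl-tRNA synthetase genes 3 were lower and 0 higher, and 19 of the 22 values were below 0, with a median of -0.42. YARS1, MARS1 and IARS1, which charge tyrosine, methionine and isoleucine tRNAs, were at -1.18, -1.12 and -1.09. MARS1 had 631, 694 and 734 CPM in HEK293T and 361, 332 and 256 CPM in R1. It was at -0.99 and under the fold threshold when R1 replicate 3 was left out.

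Of 48 replication-dependent histone genes, most of them at low counts, 14 were lower in R1 and 0 higher, with a median log2 fold change of -1.75, or -1.65 with genes at 0 in a group set to their bound, and 44 of the 48 values were below 0. In +Met 2 were lower and 1 higher, with a median of -0.11. Only 8 of the 48 averaged 4 CPM or more, and 5 of these were lower. H3C10 had 6.07, 5.93 and 5.96 CPM in HEK293T and 0.0655, 0.354 and 0 CPM in R1 (-5.34), and H2AC15 had 1.16, 1.64 and 1.66 CPM against 0.197, 0 and 0 CPM, a ratio of 24.7 with an exact 95% counting interval of 8.12 to 123. Histone genes are near-identical copies, among which reads may be split, and some entries held identical values. Of the 37 on chromosome 6, 10 were lower, and of the 11 elsewhere, 4.

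Called genes made up 2.13% of the S phase list and 8.7% of the G2 and M phase list, beside 10.4% of all genes. In the S phase list 1 of 47 genes was higher and 0 lower, with a median of -0.08, and in the G2 and M phase list 4 of 46 were higher and 0 lower, with a median of 0.28. Those were HMMR, CENPE, KIF20B and ANLN, genes of the mitotic spindle and of cytokinesis, with log2 fold changes of 1.96, 1.61, 1.12 and 1.10. R1 replicate 3 was the highest library in each, for example at 646 CPM for HMMR against 184 and 153 CPM in the other R1 libraries and 66.6, 87.2 and 98.2 CPM in HEK293T. Without it HMMR was at 1.01 and CENPE at 1.12, both called, and KIF20B at 0.57 and ANLN at 0.68, not called. HMMR also lost its call without any 1 HEK293T library (edgeR, adjusted p = 0.0632 to 0.0759), and CENPE without HEK293T replicate 2 or 3 (0.0969 and 0.102).

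Of 31 genes of the G1 list 2 were higher and 3 lower. RB1, the retinoblastoma protein gene, had 23.3, 21.7 and 19.9 CPM in HEK293T and 44, 58.1 and 136 CPM in R1 (1.88, and 1.24 without replicate 3). CCNE2, cyclin E2, was at 1.56 with all libraries and at 0.73, not called, without replicate 3. GADD45B, a stress gene, and CDKN2C, the CDK inhibitor p18, were lower at -2.71 and -1.38. GADD45B had 23.1, 23.4 and 21.2 CPM against 4.06, 4.83 and 1.49 CPM, with no overlap.

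Of 32 immediate-early and ID genes 11 were lower in R1 and 1 higher, with a median of -0.83 (-0.53 without R1 replicate 3). MYC, the growth-promoting transcription factor, was the most abundant of those named, with 535, 568 and 582 CPM in HEK293T and 53.9, 62.0 and 65.4 CPM in R1 (-3.22 ± 0.17, adjusted p = 1.46e-06). In +Met it had 325, 280 and 292 CPM in HEK293T and 51.7, 52.9 and 47.3 CPM in R1 (-2.56). The R1 libraries of both media lay together, below all HEK293T libraries. MYCN was the higher member, at 0.323, 0.339 and 0.331 CPM against 1.38, 1.77 and 2.86 CPM.

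JUN, a subunit of AP-1, had 317, 285 and 260 CPM in HEK293T and 55.8, 57.8 and 63.5 CPM in R1 (-2.28 ± 0.17, adjusted p = 2e-05). DUSP1, a MAP kinase phosphatase, had 90.7, 105 and 102 CPM against 14.8, 17.5 and 3.38 CPM (-3.06). Both were lower in +Met as well, at -1.29 and -1.68. The genes ID1 to ID4, which encode inhibitors of basic helix-loop-helix factors and were taken up after their values were seen, were at -1.88, -1.06, -2.12 and -1.91, all called. R1 replicate 3 was far below the other R1 libraries in ID1, ID3 and ID4, and without it their values were -1.36, -1.60 and -1.47, still called. ID1 and ID3 each lost their call without any 1 HEK293T library and without R1 replicate 2, with the highest edgeR adjusted p, 0.122 for ID1 and 0.103 for ID3, without HEK293T replicate 3. EGR1 varied between R1 libraries, at 3.47, 29.3 and 18.6 CPM, and overlapped with HEK293T.

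Cytosolic ribosomal protein genes were lower in R1 in 15 and higher in 1 of 86 cases, with a median of -0.50 (-0.75 without R1 replicate 3). In +Met 62 were lower and 0 higher, with a median of -1.45. In -Met+Hcy the lower genes lay mainly on chromosome 19, with 10 of its 13 members called lower. Of the 66 placed outside chromosomes 6, 19 and the stretch of X described later, 2 were lower. The 1 member with no annotated place was also lower. RPS15 had 1302, 1530 and 1891 CPM in HEK293T and 755, 596 and 606 CPM in R1 (-1.27 ± 0.24, adjusted p = 0.00453), and was at -0.80 and not called (adjusted p = 0.149) with a trend of fold change on GC content removed. RPSA was at -1.25. EEF1A1, the elongation factor that delivers aminoacyl-tRNA to the ribosome, was the most abundant gene called lower both with and without replicate 3, with 10860, 14450 and 17470 CPM against 6982, 5303 and 6398 CPM (-1.20 ± 0.26, adjusted p = 0.00988). HEK293T replicate 1 was the lowest of its group in each of these genes.

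Of the 13 protein-coding genes of the mitochondrial genome 6 were higher and 0 lower, with a median of 1.27, while in +Met the median was -0.57. Without R1 replicate 3 the median was 0.66 and 2 of the 6 were still called, MT-ND5 and MT-ND6. MT-ND5, a subunit of complex I, had 1393, 799 and 810 CPM in HEK293T and 1875, 2417 and 4976 CPM in R1 (1.63), and MT-ND6 388, 234 and 223 CPM against 583, 711 and 730 CPM (1.26). The lines did not overlap in either gene, but the calls of MT-ND5 and MT-ND6 were lost without HEK293T replicate 2 (edgeR, adjusted p = 0.0801 and 0.0629) and without its replicate 3 (0.0758 and 0.0599). In +Met their log2 fold changes were -0.57 and -0.59, not called, and the interaction of MT-ND6 without R1 replicate 3 was 1.79 (adjusted p = 0.0409). Nuclear respiratory chain genes were lower in 4 and higher in 1 of 91, and mitochondrial ribosomal protein genes lower in 6 and higher in 1 of 78, with medians of -0.12 and -0.42. On chromosome 19, 3 of 11 and 3 of 4 members of these lists were lower. Outside chromosomes 6, 19 and the stretch of X described later, 1 of 77 and 2 of 66 were lower, beside 3.18% of all genes there. UQCRFS1, the Rieske protein of complex III, had 222, 280 and 301 CPM in HEK293T and 159, 94.6 and 87.3 CPM in R1 (-1.24).

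**Figure D4:**
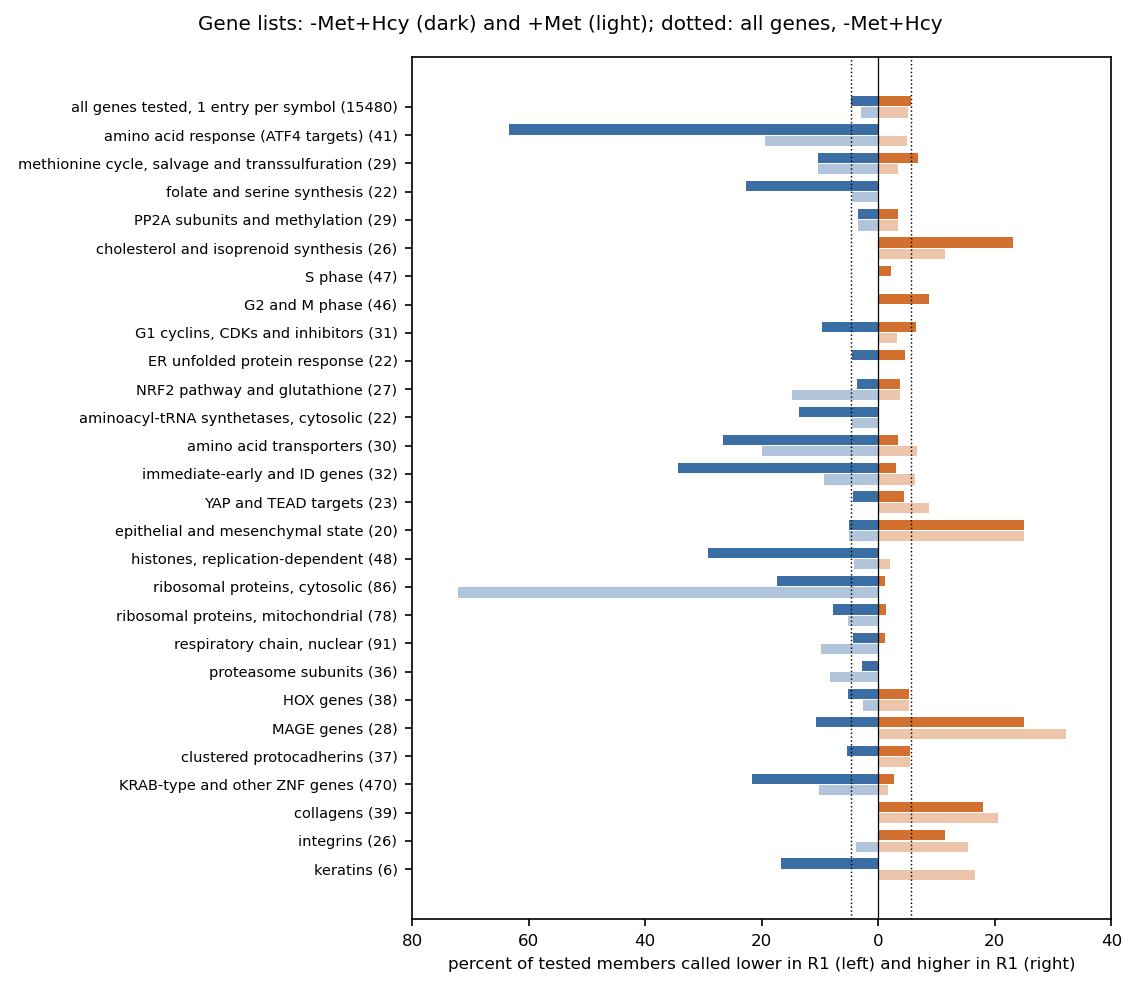
Share of the tested members of each gene list that was called lower (left) or higher (right) in R1, in -Met+Hcy (dark bars) and in +Met (light bars), with the number tested after each name. Dotted lines mark the shares of all genes in -Met+Hcy, 4.75% lower and 5.65% higher, and the amino acid response has the longest dark bar while ribosomal proteins have the longest light one.

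In edgeR's fit of all libraries, genes of cholesterol and isoprenoid synthesis were called in the higher direction only, as were collagens and integrins. Of 26 sterol genes 6 were higher and 0 lower, and 23 of the 26 values were above 0, with a median of 0.68. In +Met 3 were higher and 0 lower, with a median of 0.43. HMGCS1, which makes HMG-CoA, had 43.0, 43.1 and 37.0 CPM in HEK293T and 104, 134 and 148 CPM in R1 (1.65 ± 0.19, adjusted p = 0.000279). TM7SF2, a sterol reductase, had 3.29, 4.46 and 2.65 CPM against 42.7, 57.0 and 12.1 CPM (3.42) and was higher by a like amount in +Met (3.36). SREBF2, which encodes the sterol-regulated transcription factor SREBP-2 and was looked up after the list, was at 0.69 (adjusted p = 0.126).

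HSPA8, the constitutive HSP70 chaperone, was the most abundant gene called higher in R1 both with and without replicate 3. It had 734, 1036 and 1069 CPM in HEK293T and 3670, 2755 and 5742 CPM in R1 (2.10 ± 0.28, adjusted p = 0.000748, and 1.76 without R1 replicate 3). In +Met it had 4184, 4547 and 4783 CPM in HEK293T and 3709, 4927 and 3561 CPM in R1 (-0.15, not called). The HEK293T -Met+Hcy libraries were thus the low ones, and the interaction was 2.25 (adjusted p = 0.085) with all libraries and 1.91 (adjusted p = 0.00856) without R1 replicate 3. Other chaperone genes, chosen after their values were seen, included HSPA4 at 1.25 and HSP90AA1 at 1.05, which were at 0.91 and 0.70 and not called without that replicate. HSPB1, a small heat shock protein, was higher in both media alike, with 47.7, 54.7 and 54.7 CPM in HEK293T and 255, 294 and 246 CPM in R1 (2.34, and 2.42 in +Met). HSPA1A, the stress-induced HSP70, had at most 1.41 CPM in the 6 libraries.

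In the list of the unfolded protein response of the endoplasmic reticulum 1 of 22 genes was higher and 1 lower. HERPUD1 was at -1.24, and HSP90B1 at 1.06, or 0.65 and not called without R1 replicate 3. In the NRF2 list 1 of 27 was higher and 1 lower. NQO1, a quinone reductase, had 5.88, 7.51 and 8.48 CPM in HEK293T and 51.9, 36.1 and 34.0 CPM in R1 (2.48). HMOX1, heme oxygenase 1, had 24.7, 27.6 and 27.8 CPM against 11.9, 11.7 and 4.70 CPM (-1.50). Both differences were called in +Met as well, at 2.23 and -1.72. Of 36 proteasome genes only PSMB10 was called, at -1.10.

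Of 28 MAGE genes 7 were higher and 3 lower, with a median of 1.03 (0.94 with genes at 0 in a group set to their bound), and in +Met 9 were higher and 0 lower. MAGEL2 had no counts in HEK293T and 1.97, 3.06 and 0.115 CPM in R1, at least 9.15-fold higher. Of 39 collagen genes 7 were higher and 0 lower, with a median of 0.31, and in +Met 8 were higher. Without R1 replicate 3, 9 collagens were higher and 1 lower, with a median of 0.67. DESeq2 with all libraries called 7 higher and 1 lower. COL2A1, the collagen of cartilage, had 9.23, 6.33 and 4.77 CPM against 71.6, 122 and 29.3 CPM (3.45 ± 0.48, adjusted p = 0.00094). COL5A2 and COL5A1, chains of type V collagen, were at 2.24 and 2.22. R1 replicate 3 was the lowest R1 library in these 3 genes.

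Of 26 integrin genes 3 were higher and 0 lower: ITGB3, ITGA8 and ITGA6 (4.58, 2.90 and 1.74). These 3 are 11.5% of the list, beside 10.4% of all genes called, and in +Met 4 were higher and 1 lower. ITGA6 had 12.9, 12.0 and 12.6 CPM in HEK293T and 28.7, 38.1 and 58.5 CPM in R1. In the list of epithelial and mesenchymal genes 5 of 20 were higher and 1 lower, and the counts in +Met were also 5 and 1. CDH2, N-cadherin, had 37.3, 36 and 30.1 CPM against 80.6, 91.5 and 131 CPM (1.55), and OCLN, occludin of tight junctions, 3.23, 7.34 and 5.90 CPM against 18.4, 29.2 and 46.0 CPM (2.50). SNAI2, a repressor of epithelial genes, was the lower member, with 234, 252 and 265 CPM against 22.0, 19.3 and 70.4 CPM (-2.75, and -3.60 without R1 replicate 3). It was lower in +Met also (-3.16). The list thus held markers of both epithelial and mesenchymal state among the higher genes.

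Called shares of the remaining lists stand beside 10.4% of all genes. They were 10.5% for HOX genes, 10.8% for clustered protocadherins, 8.7% for YAP and TEAD targets and 16.7% for keratins. Of 38 HOX genes 2 were higher and 2 lower, among them HOXB3, with 8.07, 7.17 and 5.57 CPM against 20.8, 19.3 and 12.0 CPM (1.32), and HOXD13, with 337, 380 and 438 CPM against 147, 112 and 231 CPM (-1.24). Both were called in +Met in the same direction, at 1.07 and -1.13. Without R1 replicate 3, 5 HOX genes were higher and 1 lower. Of 37 clustered protocadherins 2 were higher and 2 lower, and only 3 averaged 4 CPM or more. PCDHGC3 was at 2.22 and PCDHGC4 at 2.16, and both were higher in +Met. Of 23 YAP and TEAD targets ARHGEF17 was higher (2.01) and CCN2 lower (-1.17), and of 6 keratin genes KRT10 was lower (-1.27).

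The position of genes was examined after values by chromosome had been seen, over 11082 genes that averaged 4 CPM or more and had a place in the GENCODE release 44 annotation of GRCh38. Genes of chromosome 19 had a median log2 fold change of -0.65 over 743 genes, of which 84.1% were below 0 and 24.1% were called lower, where 5.48% of all 11082 were called lower. The medians of the single R1 libraries were -0.48, -0.48 and -1.34 from the HEK293T mean, so that replicate 3 was the lowest, and without it the value was -0.52. After each library's trend with GC content was removed it was -0.53. In +Met it was -0.53, with -0.47, -0.57 and -0.48 in the single R1 libraries.

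Chromosome 6 had a median of -0.34 over 527 genes (-0.43 without R1 replicate 3 and -0.37 in +Met), and 12.3% of its genes were called lower. The other chromosomes, the mitochondrial one apart, had medians of -0.06 to 0.27, or -0.10 to 0.23 without R1 replicate 3. One stretch of chromosome X was also low. From IGBP1 to ATG4A, at chrX:70133447-108154671, 85 genes had a median of -0.58 (-0.82 without R1 replicate 3 and -0.83 in +Met) and 22.4% were called lower. SLC7A3 and DIAPH2, with no counts in R1, lie in this stretch. It was picked from the same fold changes. The rule was a running median of 31 genes beyond 0.35 in absolute value, with the same sign in both media. It used values with the GC trend removed and R1 replicate 3 left out, so the low medians follow from the choice. Other such runs lay on chromosomes 4, 6, 7 and 19, of which those on 4 and 7 were higher, each with a median of 0.42. Outside chromosomes 6, 19, X and M, 3.48% of 9398 genes were called lower and 6.47% higher. DNA copy number was not measured here, and neighbouring genes are not independent of each other.

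**Figure D5:**
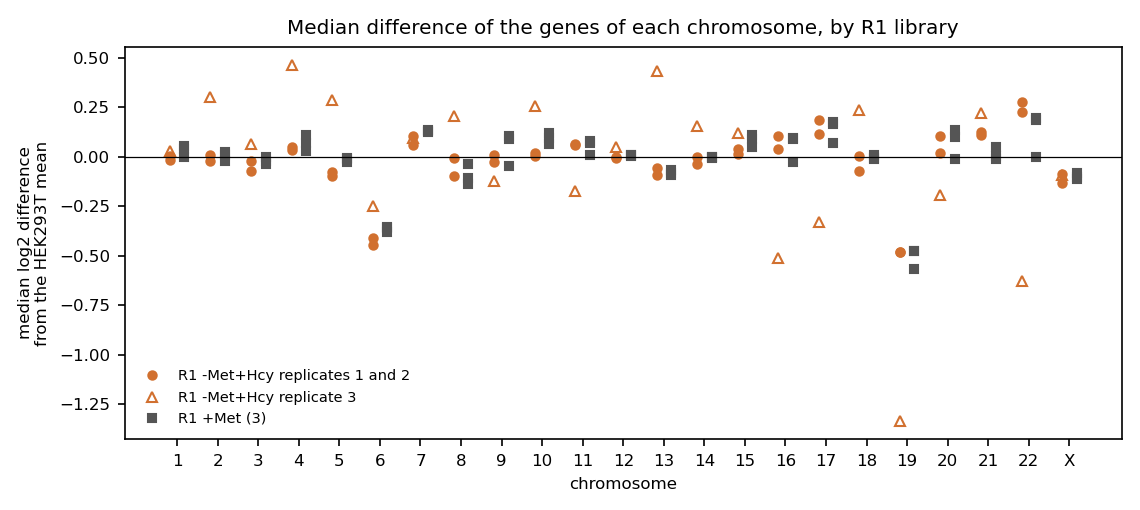
Median log2 difference of each R1 library from the HEK293T mean of the same medium, for the genes of each chromosome, in -Met+Hcy (orange, with replicate 3 as an open triangle) and in +Met (grey squares). All 6 R1 libraries lie at -0.247 or lower for chromosomes 6 and 19, and replicate 3 departs from the other R1 libraries on many chromosomes.

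Zinc finger genes, many of which lie on chromosome 19, were counted by place. Of 470 ZNF genes, which mostly encode transcriptional repressors, 102 were lower in R1 and 13 higher, with a median of -0.55. On chromosome 19, 80 of 227 were lower (35.2%) with a median of -1.03, and outside chromosomes 6, 19 and the X stretch 22 of 229 were lower (9.61%) with a median of -0.12. In all genes the shares were 17.7% of 1099 and 3.18% of 13320. The counts outside these regions leave out 5 ZNF genes and 178 of all genes that had no place in the annotation. ZNF331 had 3.81, 4.24 and 4.44 CPM in HEK293T and no counts in R1, at least 22.9-fold lower, and ZNF329 had 15.5, 18.8 and 20.9 CPM against 0.328, 0.589 and 0 CPM. Both lie on chromosome 19 and were lower in +Met too. ZNF467 and ZNF681 were higher, at 3.30 and 4.67. Of the amino acid response genes, 22 of the 35 outside those chromosomes and that stretch were lower, or 62.9%, and FGF21 lies on chromosome 19.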

How the data were processed

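RNA of HEK293T and R1 cells, 3 libraries per line and medium, was sequenced as bulk RNA-seq. The deposited table holds estimated counts per Ensembl gene, which the authors obtained with kallisto (version 0.48.0 in the submitters' processing notes, GRCh38) by adding the transcripts of a gene and converting the sums to integers. The annotation release behind the table and the RNA selection are not given in the sources used here. Of 23500 rows, 4176 were 0 in all 12 libraries and 6338 had a summed count under 10, and these 6338, which include the former, were left out. The remaining 17162 were fitted with edgeR 4.0.16 (R 4.3.3): trimmed mean of M values scaling, a mean for each of the 4 groups over all 12 libraries (8 residual degrees of freedom), quasi-likelihood tests and Benjamini-Hochberg adjustment over all entries, and entries were called at more than 1 log2 unit in either direction with an adjusted p under 0.05, the thresholds of the study, which used DESeq2. DESeq2 1.42.0 was an alternative here.

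The fit was tested on simulated data. There 94% of 200 genes changed by 2 log2 units were recovered, and 7 unchanged genes were called. Apart from those changes all simulated libraries had the same expression profile. They had no trend with GC content and no library that lay apart like R1 replicate 3, so the simulation cannot show how these features affect the calls. Libraries held 12664158 to 18771349 counts. Intervals and floors (3 counts per library) cover counting error only. Positions came from GENCODE release 44, in which 15857 of the tested entries were found, and promoters from RefSeq (GRCh38.p14).

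The members and gene lists were chosen with earlier results of these data known. Named genes were, in each direction, the 12 with the largest log2 fold change among genes called with and without R1 replicate 3, with at least 5 CPM in 1 group and no overlap of libraries, the 5 of these called genes with the highest mean, up to 4 called members of each list, and genes the study or its subject names. Others are said in the text to have been chosen after their values were seen. Results for a few genes are not reported here.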

Additional observations from a re-analysis of the deposited data

Results flagged for a closer look

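For the 7 genes given here the difference between R1 and HEK293T in -Met+Hcy departed from the same difference in +Met by a test of the difference itself (edgeR's interaction contrast over all 12 libraries, Benjamini-Hochberg adjusted). The log2 fold change in -Met+Hcy minus that in +Met was -3.82 for MYOM2 (adjusted p = 0.0294), -2.75 for H1-2 (0.046), -2.64 for SLC2A14 (0.014), -2.49 for SESN2 (0.046), -1.82 for MOAP1 (0.046), -1.76 for GADD45A (0.046) and -1.60 for CTH (0.046). In SLC2A14, SESN2, GADD45A, MOAP1, H1-2 and CTH the HEK293T -Met+Hcy libraries were the highest of the 12, while R1 stayed lower in that medium. In MYOM2 the HEK293T +Met libraries were the lowest of the 12. Without R1 replicate 3 all 7 had an adjusted p of at most 0.00409, but leaving out any 1 of the HEK293T +Met libraries ended the calls of all 10 entries. So did leaving out HEK293T -Met+Hcy replicate 2 or 3, or R1 +Met replicate 2 or 3, and taking the replicate number as a block. Without HEK293T -Met+Hcy replicate 1, R1 +Met replicate 1, or R1 -Met+Hcy replicate 1 or 2, the calls numbered 1, 2, 1 and 3.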

How the results depend on the processing

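Against 908 higher and 800 lower entries, edgeR on the 6 -Met+Hcy libraries alone gave 272 and 219. With R1 replicate 3 left out, an alternative chosen after seeing the data, edgeR on the 5 libraries gave 1482 higher and DESeq2 on the remaining 11 gave 1498 higher. Leaving out 1 library at a time gave 495 to 1473 higher and 455 to 1100 lower, with the fewest without HEK293T -Met+Hcy replicate 2 and the most without R1 -Met+Hcy replicate 3. Entries called in the same direction in both media (719) then numbered 416 (without R1 +Met replicate 1) to 1300, and 1151 with the GC trend removed and R1 replicate 3 left out, and 1357 with DESeq2 without that replicate. The 10 interaction calls became 190 with DESeq2, 6 with no filter on low counts, 4 with 1 entry per set of identical entries, 100 with the GC trend removed, 332 with that and without R1 replicate 3, 488 with DESeq2 without it, and 0 to 236 with 1 library left out. The cause of these changes was not tested.

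With the replicate number as a block (replicate block), 697 entries were higher, 661 lower, 544 shared between media and 0 called for the interaction. In -Met+Hcy, deviations from the group mean had r = 0.003, -0.160 and 0.215 across genes between R1 and HEK293T libraries of the same number. The group means include R1 replicate 3, and the +Met libraries were not compared. These values therefore cannot show whether a replicate number marks a shared batch.

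Without R1 replicate 3, the median of epithelial and mesenchymal genes was 0.312 and that of clustered protocadherins -1.104. With the GC trend removed, medians were 0.185 for epithelial and mesenchymal genes, 0.128 for HOX genes and 0.668 for integrins. The other 76 of 81 list medians moved by less than the spread between libraries, although the NRF2 median (-0.047) was 0.034 without R1 replicate 3 and 0.044 with the GC trend removed, and the G1 median (-0.013) was 0.024 with the latter. That spread is the SD of the medians of the 3 R1 -Met+Hcy libraries, replicate 3 included. A replicate that lies apart widens it, so a move within it cannot show that a median is stable. Without that replicate the PP2A median went from 0.282 to 0.017 (spread 0.31). The folate and serine median went from -0.454 to -0.149 (spread 0.326). Without R1 replicate 3 the medians of 10 of 24 chromosomes changed sign: those of 1, 12, 14 and 3 became -0.011, -0.016, -0.057 and -0.048, and those of 2, 5, 8, 13, 16 and 18 became -0.019, -0.087, -0.062, -0.104, 0.060 and -0.007. Those of 4, 7, 15, 21 and X were 0.014, 0.073, 0.015, 0.099 and -0.082, and the other 9 kept their sign and moved less than that spread. Of the 130 genes named in the text, 75 kept their direction and their side of the threshold in every setting. No gene changed direction in a setting where it or its reported value was called, but IGFBP3, JDP2, LCMT1 and SLC1A4, which were not called, changed sign in at least 1. Without R1 replicate 3, 119 kept their side and 11 lost their call, 44 lost it with edgeR on the 6 libraries alone, and 25 each without HEK293T -Met+Hcy replicate 2 or 3. Without that replicate 2, edgeR's adjusted p was 0.130 for H2AC15, 0.123 for MYCN, 0.0996 for MTHFD2L, 0.0982 for MAGEL2, 0.0910 for OSMR, 0.0832 for ITGB3 and 0.0560 for RPSA, and MTRR was at -0.98 on the log2 scale, under the fold threshold.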
